A study of Homo sapiens with 4 samples.

Results

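A set of 9 genes of pericellular proteolysis was followed in the human gastric carcinoma line SNU-16 after growth in mice. They are the plasminogen activators PLAU and PLAT, the urokinase receptor PLAUR, the membrane serine protease ST14, the membrane-type matrix metalloproteinases MMP14 and MMP15, and the metalloproteinase inhibitors TIMP1, TIMP2 and TIMP3. The genes were chosen by symbol and each was read from the probe set with the highest mean, which gave 9 of 9 genes out of 18417 with a single symbol. All 9 lay above the signal minimum used for testing, a mean log2 value of 5.64 over the 4 arrays.

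The line was grown orthotopically in the stomach wall of BALB/c nude mice, and round 1 lines were established from the stomach tumour and from an ovarian metastasis. Both lines were cultured and injected once more into the stomach, and the stomach line gave the stomach sample of round 2 and the ovary line the ovarian metastasis of round 2. There was 1 array for each combination of site and round, 4 in all, each from RNA of pelleted cells, and no array of the unimplanted line was analysed here. All 4 share the SNU-16 origin, the athymic host, which lacks mature T cells but keeps other leukocytes, and growth in the same serum-containing medium. The age of the mice, the number of mice and whether lines were clonal or pooled were not given in the sources used here. Each round 2 line derives from the round 1 line of its site, so p-values between sites measure only the spread between such related samples. Between rounds, the standard errors and p-values take the spread between the sites of a round as their error. Either spread may in part be technical.

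The free-text descriptions of both round 2 samples conflict with their titles on the site: 1 gives the ovary as the cultured site of the stomach sample, and the other puts the ovary sample's tumour in the stomach. The titles, which the tissue labels match, were used. Site differences of the 9 genes and of the partner genes described by site are therefore also given for round 1 alone. Round differences within a site, and changes of the site difference between rounds, rest on the same round 2 titles. Array medians over all 33297 rows lay between 6.80 and 6.84 log2 units; precision is limited by having 4 arrays. The epithelial identity was checked with 10 markers, all above the signal minimum, including EPCAM at a mean of 11.96 and the E-cadherin gene CDH1 at 11.57. Probe sets differ in their response, so levels are compared between arrays for 1 gene and not between genes.

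Cells cut and remodel the matrix around them with proteases held at or secreted near their surface. Urokinase, encoded by PLAU, binds its receptor PLAUR on the membrane and converts plasminogen to plasmin, which degrades fibrin and activates other proenzymes. The tissue activator encoded by PLAT performs the same conversion mainly on fibrin. Matriptase, encoded by ST14, is an epithelial membrane protease that activates pro-urokinase, the precursor of hepatocyte growth factor and the channel-activating protease prostasin. MMP14 cleaves collagen and activates pro-MMP2 in a complex that requires TIMP2, so TIMP2 serves both as an inhibitor and as an adaptor. In carcinoma of the stomach, as in other carcinomas, this system is known for its part in invasion, with many components often made by stromal cells rather than by tumour cells.

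The start-site regions of 3 of the genes are shown because PLAUR and TIMP1 had higher values after the second implantation at each site and MMP15 varied least over the arrays. Each is the 250 bases before the RefSeq start site, on the strand of the gene, in GRCh38.p14. PLAUR lies at chr19:43670170-43670419 on the minus strand, TIMP1 at chrX:47582186-47582435 on the plus strand and MMP15 at chr16:58025504-58025753 on the plus strand. Capitals mark matches on either strand to TGANTCA (the AP-1 consensus), TGAGTAA (a variant of it) and GGGCGG (the Sp1 core).
PLAUR: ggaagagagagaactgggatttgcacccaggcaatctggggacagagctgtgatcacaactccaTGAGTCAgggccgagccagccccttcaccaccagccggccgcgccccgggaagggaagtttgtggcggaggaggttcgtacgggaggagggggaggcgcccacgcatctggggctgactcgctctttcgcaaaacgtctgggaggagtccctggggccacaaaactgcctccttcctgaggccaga
TIMP1: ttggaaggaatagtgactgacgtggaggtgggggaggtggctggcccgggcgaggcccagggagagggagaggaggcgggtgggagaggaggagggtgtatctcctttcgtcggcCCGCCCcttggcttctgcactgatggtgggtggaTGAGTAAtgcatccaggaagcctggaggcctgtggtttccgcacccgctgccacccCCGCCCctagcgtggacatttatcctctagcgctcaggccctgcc
MMP15: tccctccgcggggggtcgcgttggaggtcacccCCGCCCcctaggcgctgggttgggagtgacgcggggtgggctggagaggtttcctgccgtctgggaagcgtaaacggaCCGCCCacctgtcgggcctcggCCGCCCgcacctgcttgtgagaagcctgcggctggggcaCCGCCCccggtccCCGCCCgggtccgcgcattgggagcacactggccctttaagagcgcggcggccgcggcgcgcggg
PLAUR holds 1 match to TGANTCA, beginning 186 bases before the start site, and no GGGCGG. TIMP1 holds 1 match to TGAGTAA, beginning 101 bases before the start site, and 2 to GGGCGG. MMP15 holds 5 matches to GGGCGG and neither AP-1 form. Of the 35116 regions of this length in the RefSeq set, 6.57% hold TGANTCA, 2.21% TGAGTAA and 42.6% GGGCGG. These matches describe letters in a window and the arrays do not measure binding. Sequences were matched for 6 of the 9 genes (7 entries, PLAU having 2). TIMP2 and ST14, which had the largest round differences of the 9, and PLAT had no entry. The motifs can therefore not be set against the round differences of the 9 genes as a whole. In the other entries, PLAU, MMP14 and TIMP3 hold neither AP-1 form, and GGGCGG occurs 3 times in 1 PLAU entry, 0 times in the other, once in MMP14 and 5 times in TIMP3.

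**Figure D1:**
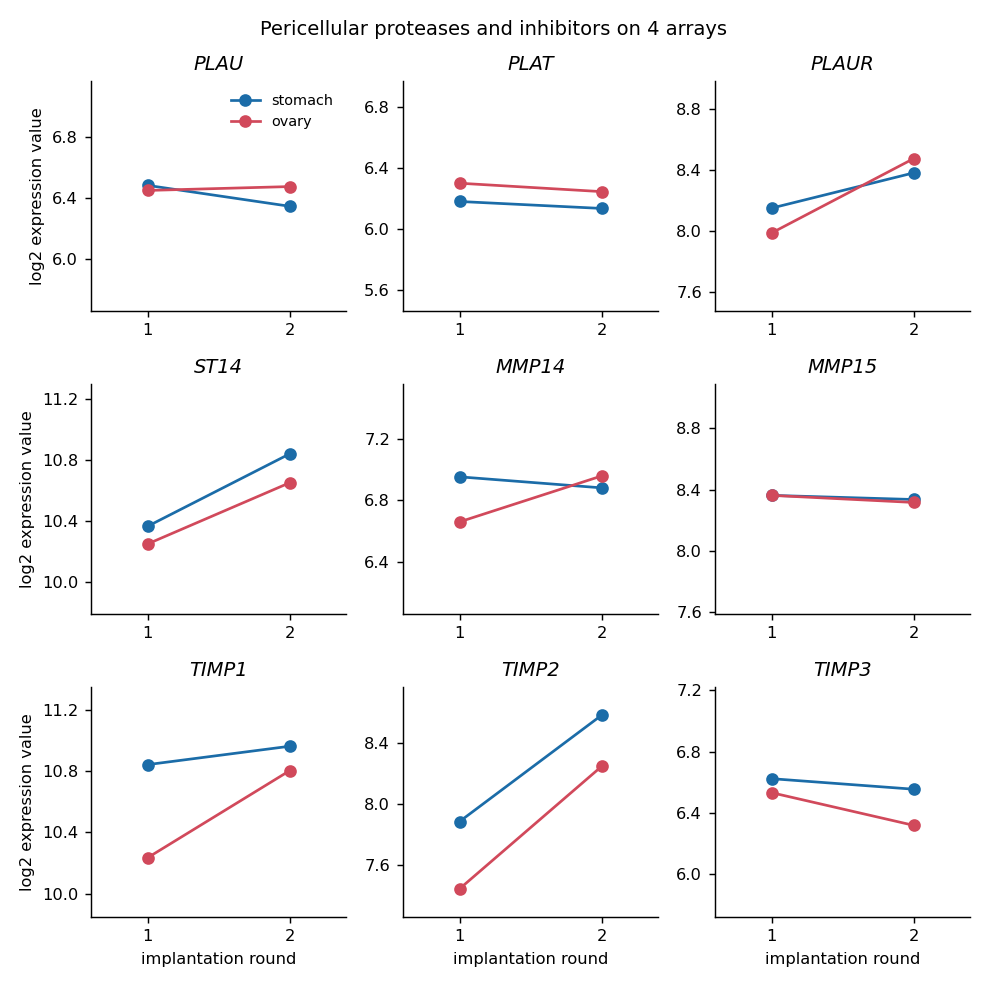
Log2 expression value (vertical axis, a span of the same height in every panel) against implantation round for each of the 9 genes; each point is 1 array, blue for stomach and red for ovary, and lines join the rounds of a site. TIMP2, ST14 and PLAUR sit higher on both round 2 arrays than on both round 1 arrays, and MMP15 spans 0.046 log2 units.

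The receptor was the member of the urokinase system with the larger spread. PLAUR (probe set 8037374) read 8.15 in stomach and 7.99 in ovary in round 1, and 8.38 in stomach and 8.47 in ovary in round 2. Both round 2 arrays were above both round 1 arrays, and the sites overlapped. The round difference was 0.36 ± 0.092 (limma's standard error), a 1.28-fold change that did not pass the test over all genes (limma, adjusted p = 0.287). It was 0.23 in the stomach lines and 0.49 in the ovary lines. The site difference was -0.035 ± 0.20, with -0.16 in round 1 and 0.093 in round 2, and it was 0.21 without the round 1 ovary array and 0.081 without the round 2 stomach array.

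The activators themselves stayed within narrow ranges. PLAU (probe set 7928429) read 6.48 and 6.34 in stomach and 6.45 and 6.47 in ovary, in rounds 1 and 2. Its whole range was 0.14 log2 units, with site means of 6.41 ± 0.097 (SD, n = 2) in stomach and 6.46 ± 0.018 in ovary, and the sites and the rounds overlapped. The site difference was 0.048 ± 0.097, with -0.033 in round 1 and 0.13 in round 2, and -0.020 without the round 2 stomach array. The round difference of PLAU was -0.056 ± 0.081, and 0.0087 without the round 2 stomach array. PLAT (probe set 8150509) read 6.18 and 6.13 in stomach and 6.30 and 6.24 in ovary. Both ovary arrays were above both stomach arrays, by 0.12 in round 1 and 0.11 in round 2, and the fitted site difference was 0.11 ± 0.088 (limma, adjusted p = 1). The values of both activators lie within 1 log2 unit of the signal minimum of 5.64, where microarrays are known to compress differences.

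ST14 (probe set 7945204) read 10.37 in stomach and 10.25 in ovary in round 1, and 10.84 in stomach and 10.65 in ovary in round 2. The rounds did not overlap, and the ovary value was the lower one in each round. The round means were 10.31 ± 0.082 (SD, n = 2) and 10.74 ± 0.13. The round difference of ST14 was 0.44 ± 0.099, or 1.35-fold, with 0.47 in stomach lines and 0.40 in ovary lines (limma, adjusted p = 0.287). Its site difference was -0.15 ± 0.22, made of -0.12 in round 1 and -0.19 in round 2. Without the round 1 ovary array it was 0.048 and without the round 2 stomach array 0.085.

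The membrane-type metalloproteinases differed in how much they varied. MMP14 (probe set 7973336) read 6.95 and 6.88 in stomach and 6.66 and 6.96 in ovary, in rounds 1 and 2. The round 1 ovary array was the low one, and the other 3 lay within 0.1 log2 units of each other. The site difference was -0.29 in round 1 and 0.078 in round 2, which averaged -0.11 ± 0.13, and it was 0.042 without the round 1 ovary array. The round difference of MMP14 was 0.11 ± 0.12 and turned to -0.033 without that array. MMP15 (probe set 7996185) read 8.36 on both round 1 arrays, 8.34 on the round 2 stomach array and 8.32 on the round 2 ovary array. Its site difference was -0.0096 ± 0.087, with no difference in round 1 and -0.019 in round 2, and its round difference -0.037 ± 0.068. The deposited values of MMP15 on the round 1 arrays are identical to every decimal given, and by that same criterion 11.1% of tested genes have equal values on at least 2 arrays.

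Of the inhibitors, TIMP2 had the largest spread of the 9 genes. TIMP2 (probe set 8018966) read 7.88 in stomach and 7.45 in ovary in round 1, and 8.58 in stomach and 8.25 in ovary in round 2. Both round 2 arrays were above both round 1 arrays, and the ovary value was below the stomach value of the same round. The range was 2.20-fold. The round difference of TIMP2 was 0.75 ± 0.19, or 1.68-fold, with 0.70 in stomach lines and 0.80 in ovary lines (limma, adjusted p = 0.287). The site difference was -0.39 ± 0.36, with -0.44 in round 1 and -0.33 in round 2. As the sites overlapped across rounds, it was 0.013 without the round 1 ovary array and -0.039 without the round 2 stomach array.

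TIMP1 (probe set 8167185) read 10.84 in stomach and 10.23 in ovary in round 1, and 10.96 in stomach and 10.80 in ovary in round 2. The round 1 ovary array was the low one. Both ovary arrays were below both stomach arrays, with means of 10.52 ± 0.40 (SD, n = 2) in ovary and 10.90 ± 0.085 in stomach. The site difference of TIMP1 was -0.38 ± 0.21, made of -0.61 in round 1 and -0.16 in round 2 (limma, adjusted p = 1), and it was -0.10 without the round 1 ovary array. The round difference was 0.34 ± 0.22 (limma, adjusted p = 0.482), with 0.12 in stomach lines and 0.57 in ovary lines. Without the round 1 ovary array it was 0.040.

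TIMP3, an inhibitor that is bound to the matrix, had a round difference of the opposite sign. Its probe set 8072626 read 6.62 and 6.55 in stomach and 6.53 and 6.32 in ovary, in rounds 1 and 2. Both ovary arrays were below both stomach arrays, by 0.091 in round 1 and 0.24 in round 2 (site difference -0.16 ± 0.11, limma, adjusted p = 1). The round difference of TIMP3 was -0.14 ± 0.11, with -0.069 in stomach lines and -0.21 in ovary lines. A further probe set for TIMP3, 8075635, had a mean of 4.54, under the signal minimum, and was not used.

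**Figure D2:**
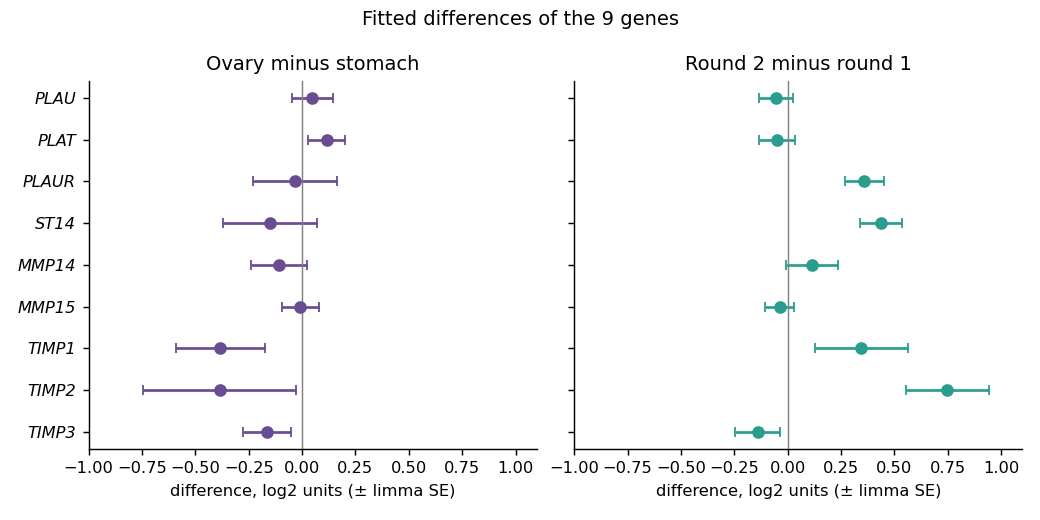
Fitted differences of the 9 genes in log2 units, ovary minus stomach on the left and round 2 minus round 1 on the right, with limma's standard error over the 4 arrays as bars. The right panel shows TIMP2 at 0.75, ST14 at 0.44, PLAUR at 0.36 and TIMP1 at 0.34, and on the left the bars of 5 genes cross 0.

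None of the 9 passed the test for the site (0% of 14547 genes called by limma at an adjusted p under 0.05) or for the round (0% called). At an unadjusted p under 0.05 the round fit held 3 of the 9, namely ST14, PLAUR and TIMP2, against 15% of all tested genes, and the site fit held 0 against 2.6%. That site fit leaves the round in the error, and the round fit leaves the site in it. With the round as a replicate block, TIMP2 and TIMP1 had an unadjusted p under 0.05 between sites (2 of 9 against 6.3% of tested genes), and with the site as a block TIMP1 joined the 3 between rounds (4 of 9 against 16.2%). None of the 9 passed after adjustment in the blocked fits, where 0% of genes were called. By values alone, both round 2 arrays were above both round 1 arrays in the same 3 genes (22.2% of tested genes) and below them in 1, MMP15 (26.8%). Array medians were also lower in round 2 (6.80 and 6.81) than in round 1 (6.84 and 6.83). The round difference of MMP15, -0.037 as deposited, was -0.013 after median centring and -0.074 after quantile normalization, so its order is sensitive to scaling. Both ovary arrays were above both stomach arrays in 1 gene, PLAT (13.3% of tested genes), and below them in TIMP1 and TIMP3 (11.2%). The median round difference of the 9 was 0.11 against -0.019 over all tested genes. The median site difference was -0.11 against 0.0016. Within single sites, 4 of the 9 were higher in round 2 at both (PLAUR, ST14, TIMP1 and TIMP2, against 29% of tested genes), 3 were lower at both (PLAT, MMP15 and TIMP3, against 34.7%) and 2 went in opposite directions (PLAU and MMP14, against 31.6%). Within single rounds, 1 was higher in ovary in both (25.3% of tested genes) and 4 were lower in both (ST14, TIMP1, TIMP2 and TIMP3, against 24.7%). Arrays at least 1.5-fold apart were found for TIMP2, TIMP1 and ST14, of which ST14 just reached it with a range of 0.59 log2 units, against 7.81% of tested genes. One gene more or fewer moves a share of the 9 by 11.1 percentage points.

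The ovary lines and the stomach lines moved by different amounts in some members. The change of the site difference from round 1 to round 2 was 0.45 for TIMP1, 0.37 for MMP14, 0.26 for PLAUR and 0.16 for PLAU. It was -0.14 for TIMP3 and between -0.073 and 0.11 for ST14, PLAT, MMP15 and TIMP2. With 1 array per site and round these values have no error of their own: an interaction fit would have to take the site and round differences as its error, so whether the site difference changed between rounds was not tested. Opposite directions of the site difference in the 2 rounds were seen in PLAU, PLAUR and MMP14, against 45% of tested genes.

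**Figure D3:**
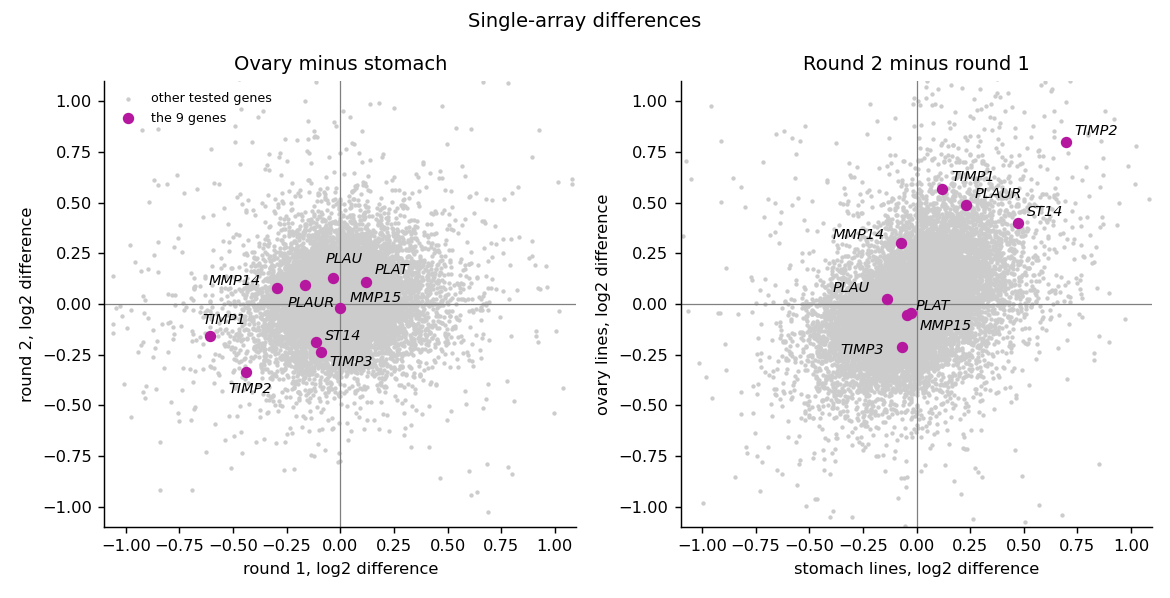
Single-array differences in log2 units. Left, ovary minus stomach in round 1 (horizontal) and round 2 (vertical); right, round 2 minus round 1 in stomach lines (horizontal) and ovary lines (vertical); purple points are the 9 genes, grey points other tested genes, of which those beyond 1.1 on an axis are not shown (74 on the left, 120 on the right). TIMP2 lies at 0.70 and 0.80 in the right panel and TIMP1 at -0.61 and -0.16 in the left.

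The partners of urokinase and plasmin were read from a list of 23 genes, of which 14 were tested, and 0 passed in either direction between sites or rounds. In the rounds 9 of the 14 were higher and 5 lower. SERPINE2, a serpin that inhibits urokinase and thrombin (protease nexin 1), read 6.67 and 6.95 in stomach and 7.34 and 7.36 in ovary, in rounds 1 and 2. Its ovary values were above both stomach values, and the site difference was 0.54 ± 0.13, with 0.67 in round 1 (limma, adjusted p = 1). The epithelial serpin SERPINB5 (maspin) had a round difference of 0.51 ± 0.19, with 0.60 in stomach and 0.41 in ovary lines. LRP1, an endocytic receptor that clears many extracellular ligands, had its lowest value on the round 1 ovary array, 9.43, against 10.08 in stomach of the same round, and 10.08 and 10.24 in ovary and stomach of round 2. The site difference of LRP1 was -0.41 ± 0.24, with -0.65 in round 1, and its round difference 0.41 ± 0.23. The plasminogen-binding heterotetramer of ANXA2 and S100A10 showed round differences of 0.17 ± 0.075 and 0.17 ± 0.082. Plasminogen itself (PLG), made by the liver, lay under the signal minimum with values from 4.71 to 5.23.

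Of 25 genes around matriptase, 18 were tested and 0 passed. Between rounds 12 were higher and 6 lower, where 45.4% of all tested genes were higher, and 7 had both round 2 arrays above both round 1 arrays (38.9%, against 22.2% of all tested genes). The cognate inhibitor SPINT1 (HAI-1) read 10.12 and 10.14 in stomach and 9.82 and 9.91 in ovary, a site difference of -0.27 ± 0.091, with -0.30 in round 1 (limma, adjusted p = 1). PRSS8, which encodes prostasin, read 10.02 and 9.93 in stomach and 9.57 and 9.75 in ovary, with a site difference of -0.31 ± 0.11, and -0.45 in round 1. For both genes the ovary arrays were below the stomach arrays, and neither had a round difference above 0.06. They were the only 2 of the 18 with that order (11.1%), near the 11.2% of all tested genes. In 3 of the 18 both ovary arrays were above both stomach arrays (16.7%, against 13.3% of all tested genes). SPINT2 (HAI-2), by contrast, had a round difference of 0.32 ± 0.090, with overlapping sites. The membrane protease TMPRSS4 differed between rounds by 0.28 in stomach and 0.27 in ovary lines. The matriptase substrate CDCP1 differed by 0.31 and 0.30. The receptor MET had a round difference of 0.075 ± 0.086 and MST1R, the receptor of macrophage-stimulating protein, of 0.13 ± 0.082. HPN (hepsin) read between 6.41 and 6.73. TMPRSS2 and F2RL1 were not analysed here.

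**Figure D4:**
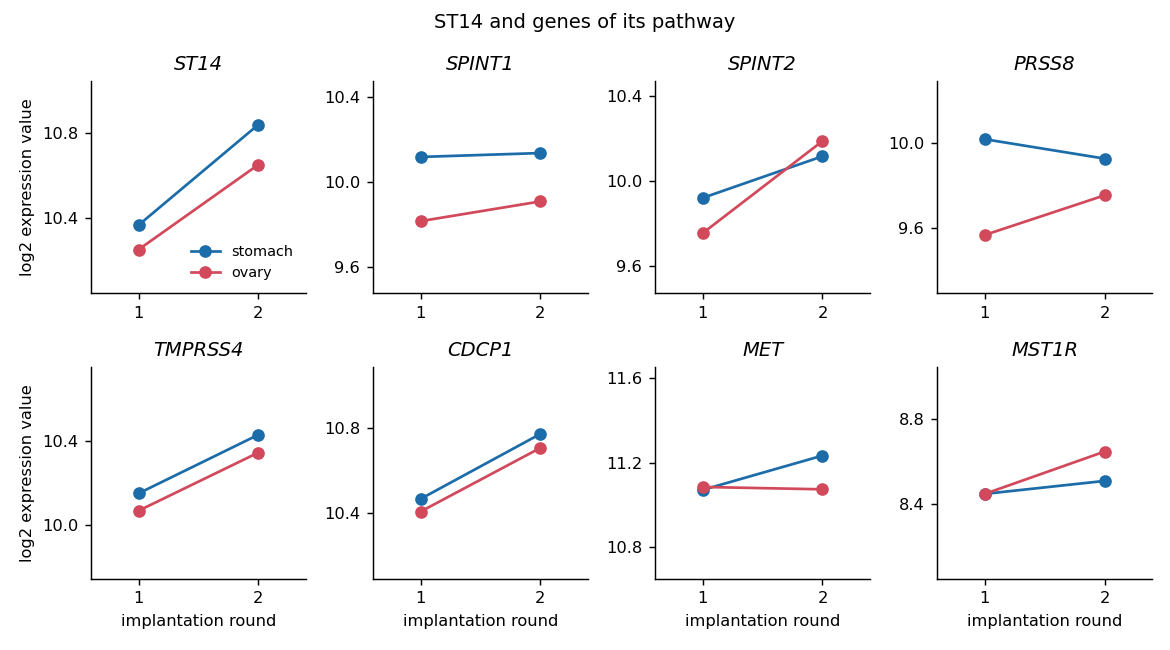
Log2 expression value against implantation round for ST14 and 7 genes of its pathway, 1 point per array, blue for stomach and red for ovary, with vertical axes of equal span. SPINT1 and PRSS8 are lower on both ovary arrays, while ST14, SPINT2, TMPRSS4 and CDCP1 are higher on both round 2 arrays.

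Of the other matrix metalloproteinases, 9 of 20 measured genes reached the signal minimum and 0 passed the test. The gelatinases were near that minimum, MMP2 with values from 5.77 to 5.97 and MMP9 from 5.97 to 6.06. The interstitial collagenase MMP1 (4.41 to 4.59) and matrilysin MMP7 (3.99 to 4.35) lay under it on every array. In 8 of the 9 tested genes the value was lower in round 2, with a median round difference of -0.11, where 54.5% of all tested genes were lower and their median was -0.019. Mean levels of these 9 ran from 5.71 (MMP21) to 7.15 (MMP11), below the median level of all tested genes, 7.86. Among 9 tested regulators, 0 passed. RECK, a membrane-anchored inhibitor of MMP14, read 6.20 and 5.92 in stomach and 6.04 and 5.68 in ovary, a round difference of -0.32 ± 0.12. Between rounds TIMP4 differed by -0.072 ± 0.13, BSG, an inducer of metalloproteinases, by -0.14 ± 0.079, and FURIN, which activates pro-MMP14, by -0.048 ± 0.077.

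In the ADAM and ADAMTS list 0 of 12 tested genes passed. The sheddase ADAM17 read 8.51 and 8.90 in stomach and 8.63 and 8.94 in ovary, a round difference of 0.35 ± 0.080, ADAM9 differed by 0.28 ± 0.096 and ADAM10 by 0.15 ± 0.073. Of 20 tested cathepsins and cystatins, 0 passed and 10 were higher in round 2. CTSB differed between rounds by 0.14 ± 0.11 and CTSD by -0.20 ± 0.090. Of 15 kallikrein-related peptidases 0 passed. In 14 the value was lower in round 2, against the same 54.5% of all tested genes, with a median of -0.12, KLK6 differing by -0.17 ± 0.15 and KLK10 by -0.030 ± 0.072. Mean levels of these 15 ran from 5.70 (KLK6) to 6.95 (KLK1), below the median level of all tested genes, 7.86. The share was not compared with genes of like level. Of 12 tested matrix substrates 0 passed, with a median round difference of 0.0099. Over all 109 tested genes of these lists limma called 0, and 23 (21.1%) had an unadjusted p under 0.05 between rounds and 5 (4.59%) between sites, beside 15% and 2.6% of all tested genes. In that set 22 had both round 2 arrays above both round 1 arrays (20.2%) and 38 had them below (34.9%), beside 22.2% and 26.8% of all tested genes.

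**Figure D5:**
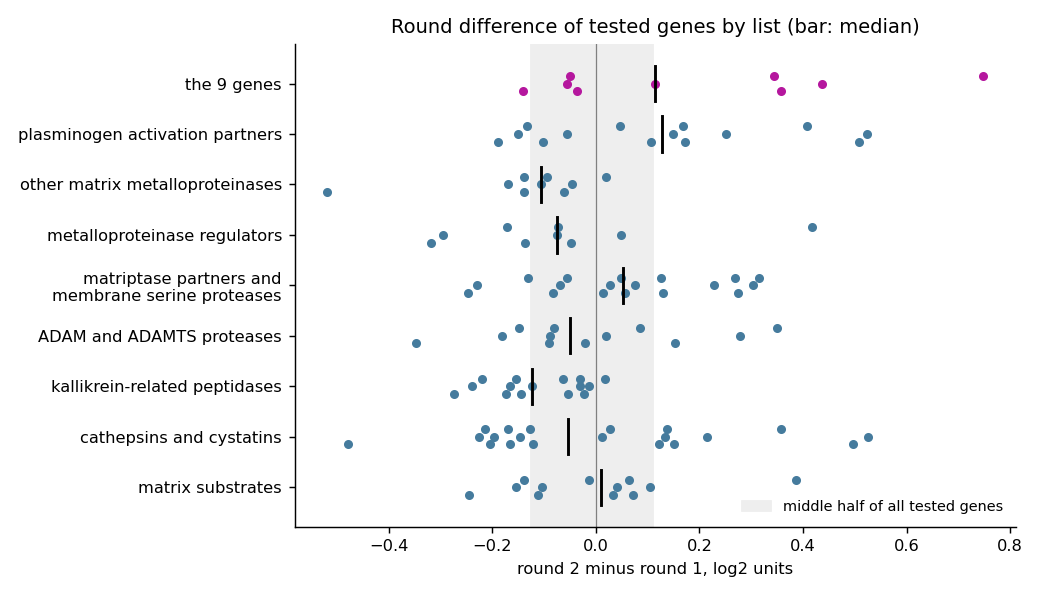
Round 2 minus round 1 in log2 units for every tested gene (points) of each list, with the list's median as a bar and the middle 50% of all tested genes as a grey band. The medians run from -0.12 for kallikrein-related peptidases to 0.13 for the partners of plasminogen activation, and that of the 9 genes is 0.11.

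The profiles most like those of the 2 members with the widest ranges were found by the root mean square distance between log2 profiles centred over the 4 arrays. For TIMP2 they were KGD4 (0.046), the regenerating family lectin REG4 (0.048) and steroid sulfatase STS (0.067), where the median distance over tested genes was 0.44. For TIMP1 they were TIMD4 (0.027), ZNF706 (0.029) and DACH1 (0.030), where the median distance was 0.30. REG4 read 10.88 and 11.44 in stomach and 10.40 and 11.16 in ovary, in rounds 1 and 2. With 4 arrays many genes share such an order.

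Several of the 9 genes are also made by stromal cells, so markers of such cells were read beside them. In bulk samples fewer cells of a type and less RNA per cell cannot be told apart. Of 12 fibroblast markers 7 exceeded the signal minimum, and the log2 of their summed linear values ranged from 9.51 to 9.62 over the arrays. DCN (3.74 to 4.04) and FAP (3.91 to 4.06) lay under the minimum on every array, while the highest of the 12, COL1A1, had a mean of 7.59. For 10 endothelial markers, 7 above the minimum, the sum ranged from 9.64 to 9.74, with PECAM1 at a mean of 4.88 and the highest, EGFL7, at 7.29. The endothelial junction gene ESAM went with the round, at 6.56 on both round 1 arrays and 7.67 and 7.39 in stomach and ovary of round 2. Of the 10 endothelial markers, however, 8 were lower in round 2, and the median round difference of that list was -0.13. For 10 leukocyte markers, 6 above the minimum, the sum was 10.56 and 10.54 in stomach and 10.29 and 10.42 in ovary, with PTPRC at a mean of 4.04. This sum of linear values weighs most on its highest member, CD68, at a mean of 9.75. CD68 read 9.89 and 9.89 in stomach and 9.47 and 9.74 in ovary, in rounds 1 and 2. Of the other leukocyte markers above the minimum, TYROBP, CSF1R, CD14 and ITGAM were lowest on the round 2 ovary array, and LAPTM5 was equal on both ovary arrays. The leukocyte sum, which follows CD68, was lowest on the round 1 ovary array. TIMP1, TIMP2, ST14, PLAUR and MMP14 were also lowest there, and the part of that sum in those values was not tested. The epithelial sum was lowest on that array as well, at 14.63 against 14.86 to 14.95 on the other 3, and its part was not tested. The mesothelial sum (5 measured markers, 4 above the minimum) ranged from 8.81 to 9.09 and the ovarian steroidogenic and follicle sum (10 measured, 5 above) from 9.93 to 10.26. The ovarian sum went with the round, at 10.24 and 10.26 in stomach and ovary of round 1 and 9.93 and 9.97 in round 2, its member ZP3 differing by -0.63 ± 0.069. KRT7, a keratin among the 10 epithelial markers, read 8.68 and 7.73 in stomach and ovary of round 1 and 9.68 and 9.89 in round 2, a 2.99-fold difference. The part of these markers in the round differences of TIMP2, ST14 and PLAUR was not tested. The array carries human probes, so mouse RNA would be read only where it cross-hybridises.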

How the data were processed

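Total RNA from pelleted cultured cells was labelled with biotin and read on Affymetrix arrays, as the labels' protocols state. The deposited table holds log2 values for 33297 probe sets, a scale inferred from their range. The submitters' processing notes name Affymetrix Expression Console; its background correction and normalization settings were not given in the sources used here. Probe sets were named through GEO's platform annotation, updated by gene identifier to RefSeq (GRCh38.p14 gene table), which gave 19460 rows with 1 symbol, 1754 with several (not used) and 12083 unnamed here. The probe set with the highest mean stood for a gene. A mean over the 30th percentile of the table's row means (5.64) was required for testing, which 14547 of 18417 genes met.

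Sites and rounds were compared with limma 3.58.1 in R 4.3.3 (lmFit, eBayes, two-sided, Benjamini-Hochberg adjustment over all tested genes), with 2 residual degrees of freedom; the interaction contrast, fitted likewise, has only the site and round differences as error and is not used as a test. Fits were tested on simulated data with independent errors and a single effect at a time. That setting does not cover related arrays such as these. The 9 genes, the lists and the motifs were chosen with earlier results of these data known. The named partner genes were set by a fixed list whatever their values, and those for the closest profiles by distance. The alternatives were other signal minima, quantile normalization, median centring, other probe sets, trended and robust priors, a replicate block, a threshold of 0.10, and leaving out each array. Promoter sequences are from RefSeq. Figures were drawn with matplotlib 3.10.9.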

Additional observations from a re-analysis of the deposited data

How the results depend on the processing

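No gene was called between sites, between rounds or for the interaction under any alternative run (limma), while 378, 2178 and 194 genes had an unadjusted p under 0.05. Whether replicate numbers, which are the rounds, mark shared animals was not given in the sources used here. Arrays of 1 round deviated together from their site means (correlation 0.41 over genes, the same for both rounds by construction). For arrays of 1 site around their round means the correlation was 0.10. With the replicate block, 0 genes were called in each of the 3 fits, with 916, 2358 and 446 at an unadjusted p under 0.05. The site and interaction counts at that level thus moved by over 1.5 times, and no call changed. The interaction fit takes the site and round differences as its error, so its counts are no test of an interaction. For the 9 genes, other thresholds, signal minima, priors, probe sets and the block give the same difference by construction, or no value where TIMP3 (other probe set choices), or PLAU, PLAT and TIMP3 (50th percentile minimum), were not tested. The 36 values under other scalings kept their sign, while 9 of 36 site values and 4 of 36 round values turned when 1 array was left out, and none was called. Leaving out each array in turn, the values that turned sign had these ranges: site differences of PLAU from -0.020 to 0.12, PLAUR from -0.28 to 0.21, TIMP2 from -0.79 to 0.013, MMP14 from -0.26 to 0.042, MMP15 from -0.033 to 0.013 and ST14 from -0.39 to 0.085, and round differences of PLAU from -0.12 to 0.0087, PLAT from -0.11 to 0.0095 and MMP14 from -0.033 to 0.26. With 3 arrays the omitted combination leaves site and round partly mixed. With the round 2 arrays exchanged between sites, an alternative chosen after seeing the data, the site differences that turned were PLAU (-0.081), TIMP3 (0.072), MMP15 (0.0096) and ST14 (0.037). Of those that kept their sign, PLAT shrank to 0.0048, TIMP2 to -0.053 and TIMP1 to -0.22, while PLAUR (-0.13) and MMP14 (-0.19) grew in size. The round differences of TIMP2, ST14, PLAUR, TIMP1, TIMP3 and MMP15 kept their direction without any 1 array. With 1 array per combination, even differences of several standard errors did not pass after adjustment. The round difference of ST14, 0.44 ± 0.099, is an example (limma, adjusted p = 0.287).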

Other observations

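Other proteases and inhibitors of the lists had larger differences than most of the 9 genes and were picked after their values were seen. PCSK5, a proprotein convertase of the furin family, read 5.57 and 5.64 in stomach and 6.25 and 6.03 in ovary, in rounds 1 and 2. Its site difference was 0.53 ± 0.11, and 0.67 in round 1, with a stomach level near the signal minimum of 5.64 (limma, adjusted p = 1). The lysosomal cathepsin CTSL read 7.50 and 7.93 in stomach and 7.48 and 8.10 in ovary, a round difference of 0.53 ± 0.090. CTSH went the other way, with 8.30 and 7.95 in stomach and 8.63 and 8.03 in ovary, a round difference of -0.48 ± 0.13. AGRN, a basement membrane proteoglycan, differed between rounds by 0.39 ± 0.072, and the metalloproteinase MMP19, near the signal minimum in round 2, by -0.52 ± 0.12. None of the round differences passed (limma, adjusted p = 0.287 for CTSL, CTSH, AGRN and MMP19).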
